A study of Mus musculus with 14 samples.

Results

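The Ly6 genes described here are Ly6a, Ly6c1, Ly6c2, Ly6d and Ly6e, 5 of the 22033 genes listed for sorted epithelial cells of mouse dorsal skin. They were taken by gene name, and all 5 are among the 12468 genes that passed the filter on low values. The cells came from wild-type C57BL/6 mice aged 2 or 24 months, sorted by flow cytometry, and polyadenylated RNA was sequenced. There were 3 populations at each age, with 2 libraries per group and 12 in all: bulge stem cells of resting (telogen) skin, interfollicular epidermis of the same resting skin, and bulge stem cells of depilated skin, which the labels call activated. A further 2 libraries, 1 per age, came from wounded epidermis. The labels do not say that the libraries of a group came from separate animals, so the tests measure only the spread between these libraries, and they do not give the surface markers of the sort.

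Ly6 proteins are small cell surface proteins with a disulfide-bonded three-finger fold, held in the outer leaflet of the membrane by a glycosylphosphatidylinositol (GPI) lipid anchor, and many of their genes sit in one cluster of the mouse genome. Ly6a encodes Sca-1, a marker of blood stem and progenitor cells that is also widely used to separate mouse epidermis from the bulge. Ly6c1 and Ly6c2 encode the nearly identical forms of Ly6C, known from monocytes and endothelium, Ly6d encodes an antigen of early B cells and of stratified epithelium, and Ly6e encodes a broadly expressed protein that interferon induces. If Sca-1 was used in the sort, a difference of Ly6a between epidermis and bulge would be no finding.

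In the mm9 annotation of the files all 5 genes lie on chromosome 15 within 349.9 kb. From the lowest coordinate, Ly6d is at chr15:74592486-74593997, Ly6e at chr15:74785481-74790335, Ly6a at chr15:74825307-74828318, Ly6c1 at chr15:74875445-74879260 and Ly6c2 at chr15:74938591-74942379. Ly6e is on the plus strand and the other 4 are on the minus strand. The files list 1 transcript each for Ly6a, Ly6c1, Ly6c2 and Ly6d, of 691 to 842 nt, and 6 transcripts for Ly6e, of 1864 to 2281 nt.

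The coding sequences show how far reads can tell these genes apart. The first 180 bases of the coding sequence are printed for the 3 closest members, 5′ to 3′, from GENCODE M21 transcripts (GRCm38), with capitals at bases that differ from Ly6c1.
Ly6c1: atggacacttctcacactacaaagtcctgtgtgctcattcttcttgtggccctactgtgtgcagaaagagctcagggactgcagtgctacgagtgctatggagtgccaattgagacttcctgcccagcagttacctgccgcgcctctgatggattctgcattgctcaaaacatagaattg
Ly6c2: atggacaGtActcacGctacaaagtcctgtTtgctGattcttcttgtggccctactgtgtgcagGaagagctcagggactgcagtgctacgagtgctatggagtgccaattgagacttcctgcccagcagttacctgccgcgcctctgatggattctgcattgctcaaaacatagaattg
Ly6a: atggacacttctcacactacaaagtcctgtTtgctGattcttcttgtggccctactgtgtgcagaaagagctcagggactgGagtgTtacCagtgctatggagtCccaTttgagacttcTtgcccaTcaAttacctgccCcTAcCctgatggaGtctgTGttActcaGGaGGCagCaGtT
In this stretch Ly6c2 differs from Ly6c1 at 6 bases and Ly6a differs from it at 26. Over the whole coding sequence, Ly6c1 and Ly6c2 differed at 9 of 396 bases (97.7% identity) and shared an unbroken run of 188 bases. Ly6a was 82.0% identical to Ly6c1 and 86.4% identical to Ly6i, a neighbour in the cluster that is not one of the 5. Ly6d and Ly6e were 50 to 53.8% identical to the other members. These percents count gaps as differences. The alignments of Ly6d and Ly6e held many gaps, such as 123 of 456 positions for Ly6a with Ly6d. Of all 50-base windows of the transcript, 36.7% for Ly6c1, 33.0% for Ly6c2 and 8.05% for Ly6a also occur in a transcript of another gene, against 0 for Ly6d and 0 for Ly6e. The read length and the treatment of reads with several matches are not given in the sources used here, so Ly6c1 and Ly6c2 values, and to a lesser degree Ly6a values, are uncertain in how reads were shared among the paralogs.

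Promoters of 300 bases (250 before to 50 after the RefSeq start, GRCm38.p6) were at hand for Ly6c1 and Ly6c2, with 2 each, and the first of each is printed because these 2 genes were low and high together in the libraries. Capitals mark the letters TATAAA, which begin 143 bases before the start in the Ly6c1 window.
Ly6c1, minus strand, chr15:75048788-75049087: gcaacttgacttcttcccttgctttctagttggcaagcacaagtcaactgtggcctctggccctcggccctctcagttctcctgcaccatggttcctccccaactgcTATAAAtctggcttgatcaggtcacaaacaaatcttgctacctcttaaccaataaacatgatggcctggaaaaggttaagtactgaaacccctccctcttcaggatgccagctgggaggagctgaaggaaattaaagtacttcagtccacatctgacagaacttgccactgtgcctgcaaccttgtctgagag
Ly6c2, minus strand, chr15:75111922-75112221: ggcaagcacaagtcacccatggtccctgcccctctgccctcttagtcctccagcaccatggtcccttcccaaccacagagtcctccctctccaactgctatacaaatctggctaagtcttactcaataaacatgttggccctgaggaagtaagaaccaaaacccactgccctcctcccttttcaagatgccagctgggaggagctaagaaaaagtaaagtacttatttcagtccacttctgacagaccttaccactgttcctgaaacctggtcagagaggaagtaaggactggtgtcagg
Aligned over their whole length, these windows were identical at 208 of 334 positions (62.3%), with gaps counted as differences. The Ly6c2 window opens with bases that lie farther inside the Ly6c1 window, so the windows are offset and the percent understates the identity of paired bases. On either strand, the interferon-gamma motif GAS (TTCNNNGAA), the core of the interferon-stimulated response element (GAAA, any 2 bases, GAAA) and the AP-1 motif (TGANTCA) were not found in any of the 4 promoters. Of all 32851 promoters of the same length, 8.30%, 3.44% and 7.81% hold these motifs. TATAAA was found once in the printed Ly6c1 promoter and in 13.6% of all promoters.

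The 12 libraries held an estimated 22.6 to 46.0 mega-fragments. Levels are FPKM (fragments by transcript length in kilobases and by a scale of the library), and their sum ran from 418634 to 751736 between libraries. Comparisons between genes are limited by reads shared among paralogs and by replicate differences that follow transcript length, given below. The bulge marker Cd34 was at 944.5 to 1303 FPKM in the telogen bulge, 59.0 to 91.9 in the activated bulge and 0.375 to 5.75 in epidermis. Krt24, Lgr5, Lhx2, Sox9, Nfatc1 and Tbx1 were also higher in both bulge populations than in epidermis. Krt15 was highest in the telogen bulge but overlapped between activated bulge (2369 to 3026 FPKM) and epidermis (2874 to 5790). Itga6, also listed for the bulge, was highest in epidermis, at 166.9 to 240.3 FPKM against 33.6 to 98.05 in the bulge. The basal keratins Krt5 and Krt14 were listed at 0 in some libraries beside values above 1000 FPKM in others and were left out of the tests. Xist was at 15.8 to 140.8 FPKM in the 4 activated libraries and at most 0.280 in the other 8, and the Y-linked Eif2s3y was at 17.96 to 48.6 FPKM in those 8 and at most 0.137 in the activated ones. Activation and this split of sex-linked genes cannot be told apart. The summed level of 7 fibroblast markers was 552 FPKM in replicate 1 of the activated bulge at 2 months, 86.9 to 174 in the other 3 activated libraries, 109 to 145 in the telogen bulge and 3.14 to 17.0 in epidermis. Without Fbln1, which both bulge populations hold at 79.9 to 142 FPKM, the other 6 summed to 427 FPKM in that replicate 1, 32.6 in replicate 1 of the activated bulge at 24 months, 7.01 and 9.45 in the other activated libraries, 15.8 to 17.3 in the telogen bulge and at most 0.629 in epidermis. In this sum both replicates 1 of the activated bulge stood above the other libraries.

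Epidermis had by far the most RNA of Ly6a, Ly6c1 and Ly6c2, and the most of Ly6d. All 4 epidermal libraries lay above all 8 bulge libraries for these 4 genes, while the 4 epidermal and 8 bulge libraries overlapped for Ly6e. The share of all genes that separate in this way was not counted, here or where overlap is given below. In bulk samples, fewer cells that carry a transcript and less of it per cell cannot be told apart.

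**Figure D1:**
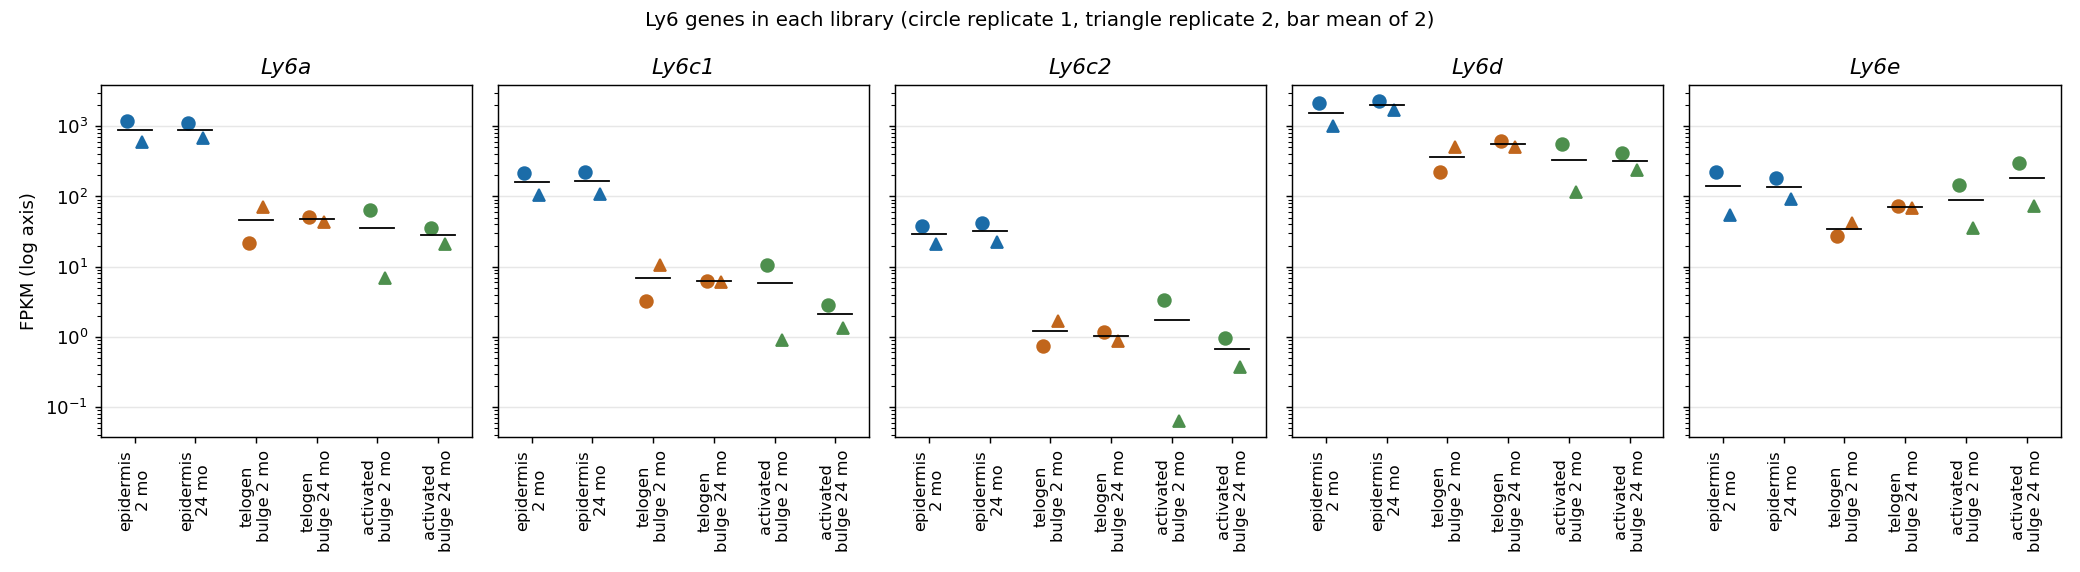
FPKM on a log axis of the 5 genes in each of the 12 libraries, by population and age in months (mo), with circles for replicate 1, triangles for replicate 2 and bars for the mean of 2. Ly6a is at 606 to 1172 FPKM in epidermis and at 6.82 to 71.1 in the bulge, while the levels of Ly6e in epidermis (54.8 to 225) and bulge (27.4 to 298) overlap.

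Ly6a, the gene of Sca-1, was at 1172 and 606 FPKM in epidermis at 2 months and at 1115 and 684 at 24 months, in the order replicate 1 and replicate 2. In the telogen bulge it was at 21.5 and 71.1 FPKM at 2 months and at 51.7 and 43.6 at 24 months, and in the activated bulge at 65.0 and 6.82 and at 35.8 and 21.05. The lowest epidermal library thus stood well above the highest bulge library, and the lowest value of all was in replicate 2 of the activated bulge at 2 months. Ordered by group mean, epidermis at 24 and 2 months (899 and 889 FPKM) was followed by telogen bulge at 24 and 2 months (47.7 and 46.3) and activated bulge at 2 and 24 months (35.9 and 28.4), and each neighbouring pair overlapped except epidermis and telogen bulge.

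Ly6c1, the more abundant of the 2 Ly6C genes here, was at 218 and 106 FPKM in epidermis at 2 months and 222 and 109 at 24 months. Its values in the telogen bulge were 3.21 and 10.5 FPKM at 2 months and 6.19 and 6.12 at 24 months, and in the activated bulge 10.6 and 0.895 at 2 months and 2.84 and 1.36 at 24 months. Every epidermal library was high and every bulge library low, and neighbouring bulge groups overlapped. Ly6c2 had the same split at a lower level, with 38.2 and 20.95 FPKM in epidermis at 2 months and 41.4 and 22.4 at 24 months. It was at 0.739 and 1.66 FPKM and at 1.18 and 0.878 in the telogen bulge, and at 3.37 and 0.0624 and at 0.971 and 0.369 in the activated bulge. The value of 0.0624 FPKM stands for an estimated 1.87 fragments, and 5 of the 8 bulge libraries were under 1 FPKM, so Ly6c2 passed the filter in every epidermal library but in few bulge libraries.

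Ly6d was the most abundant member in all 6 groups. It was at 2124 and 1003 FPKM in epidermis at 2 months and 2294 and 1702 at 24 months. In the telogen bulge it was at 224 and 514 FPKM at 2 months and 607 and 513 at 24 months, and in the activated bulge at 552 and 114 and at 412 and 235. Its epidermal libraries were again the highest 4, but no bulge library was under 114 FPKM, and the 4 bulge groups overlapped between neighbours in the order of their means.

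Ly6e did not follow this order. It was at 225 and 54.8 FPKM in epidermis at 2 months and 184 and 92.3 at 24 months, at 27.4 and 42.4 and at 73.1 and 69.6 in the telogen bulge, and at 144 and 36.1 and at 298 and 72.1 in the activated bulge. The highest library was an activated one at 24 months, and replicate 1 lay above replicate 2 in every group but the telogen bulge at 2 months. By mean, activated bulge at 24 months (185 FPKM) came first and telogen bulge at 2 months (34.9) last, and the only neighbours in that order that did not overlap were the telogen bulge at 24 and at 2 months. Of the 6 listed Ly6e transcripts, that of 1864 nt carried 43.1 to 65.4% of the gene's FPKM in a library and that of 2070 nt carried 25.6 to 36.8%.

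The telogen bulge was compared with epidermis within each age, for the difference between follicle and epidermis in resting skin. Ly6a, Ly6c1 and Ly6c2 were lower in the bulge at both ages, 3 of 5 members, and no member was higher. These 3 were known to be low in the telogen bulge at 2 months when the members were chosen. The count therefore describes the members and does not test the family. Over all 12468 genes, 7.15% were called lower at 2 months and 7.74% at 24 months, 13.0% and 12.8% were called higher, and 20.1% and 20.5% were called in either direction. At 2 months the log2 difference of Ly6a was -4.39 (SE 0.881, adjusted p = 0.00563), that of Ly6c1 -4.46 (SE 0.784, adjusted p = 0.00267) and that of Ly6c2 -3.77 (SE 0.588, adjusted p = 0.00131). At 24 months they were -4.17 (adjusted p = 0.00739), -4.45 (adjusted p = 0.0026) and -3.96 (adjusted p = 0.000939). These come from limma on log2(FPKM + 1), with p-values adjusted by Benjamini-Hochberg over all genes tested, and this scale understates the change of low genes. On the FPKM scale, mean levels were 19.2, 23.6 and 24.6 times higher in epidermis for Ly6a, Ly6c1 and Ly6c2 at 2 months and 18.9, 26.9 and 30.9 times higher at 24 months.

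Ly6d had values 4.24 times higher in epidermis at 2 months and 3.57 times higher at 24 months, with no overlap of libraries, but did not pass the test (log2 difference -2.10, adjusted p = 0.0737, and -1.82, adjusted p = 0.116). Ly6e had values 4.01 and 1.94 times higher in epidermis, also with no overlap of libraries within an age, and did not pass the test either, with log2 differences of -1.68 (95% interval -3.58 to 0.23) and -0.86 (-2.77 to 1.04) and adjusted p = 0.214 and 0.54. The median over the 5 members was -3.77 at 2 months and -3.96 at 24 months, against 0.18 and 0.11 over all genes tested. Like the count, these medians describe members chosen with part of the result known. Ly6a missed the threshold when replicate 1 of the 2-month telogen bulge was left out (-3.55, adjusted p = 0.0632) and, at 24 months, when telogen replicate 2 was (-4.05, adjusted p = 0.0533). A call of Ly6d was gained under quantile normalization (adjusted p = 0.00681 and 0.022), equal library totals (0.0116 and 0.027) and a removed length trend (0.00407 and 0.0103), and with either activated library of 2 months left out (0.0225 and 0.0231 at 2 months, 0.0422 and 0.0432 at 24 months). Fitted on the groups compared alone, it passed at 24 months (0.00815).

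**Figure D2:**
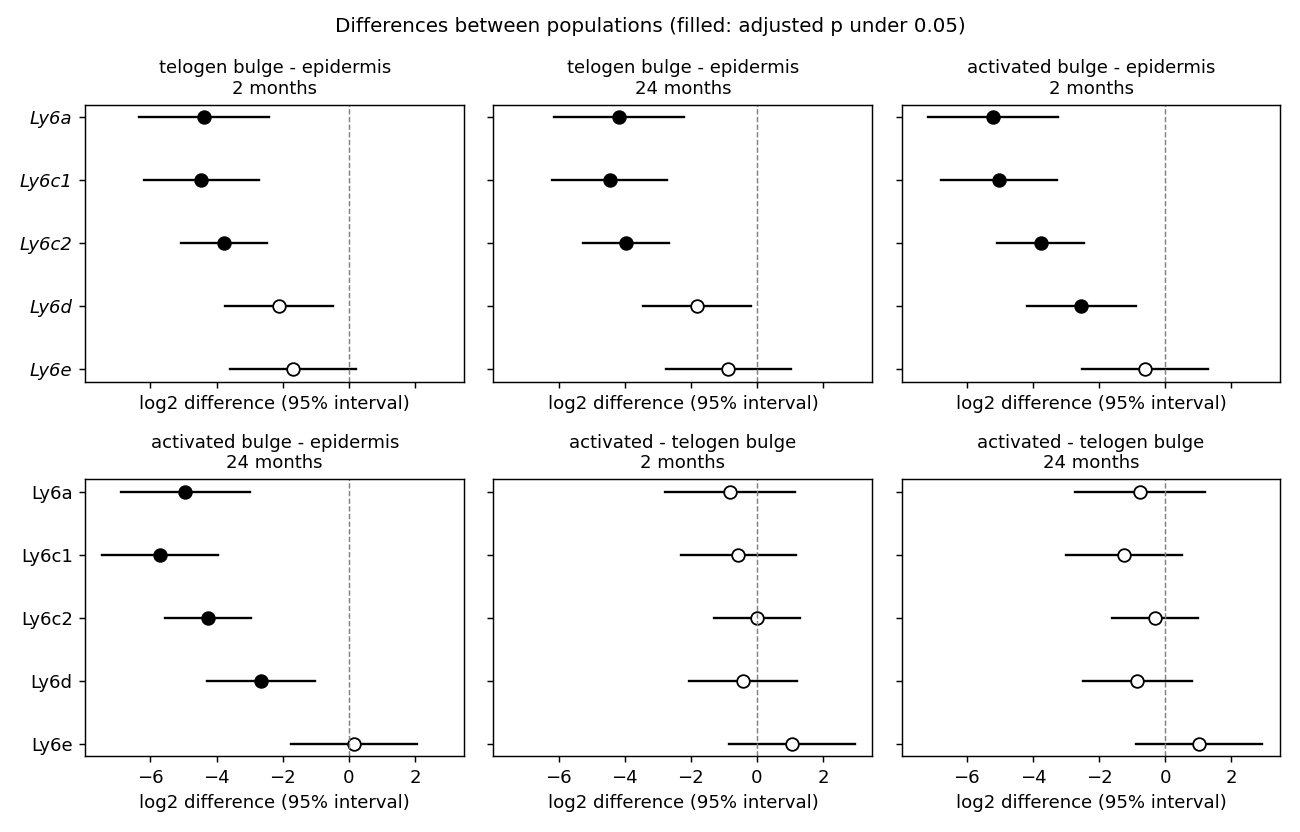
Differences on the log2(FPKM + 1) scale with 95% intervals between populations at each age for the 5 genes, with filled points for an adjusted p under 0.05. Ly6a, Ly6c1 and Ly6c2 are filled in all 4 comparisons with epidermis, Ly6d in the 2 of the activated bulge, and no point is filled between activated and telogen bulge.

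Markers of other cell types that can carry Ly6C or Sca-1 were measured in the same libraries. Of 10 endothelial markers, 9 were under 0.5 FPKM in all 4 epidermal libraries and likewise 9 in all 4 telogen libraries, and the highest was Egfl7, at up to 1.47 in epidermis and 4.39 in the telogen bulge. The sum of these 10 was 0.434 to 2.06 FPKM in epidermis, 3.19 to 4.56 in the telogen bulge and 4.53 to 14.5 in the activated bulge. Without Egfl7 the other 9 summed to 0.288 to 0.588 FPKM in epidermis and 0.166 to 0.497 in the telogen bulge, which overlapped. The 9 listed monocyte and macrophage markers summed to 2.94 to 6.58 FPKM in epidermis, to 6.67 to 11.1 in the telogen bulge and to 3.62 to 17.9 in the activated bulge. Without Cd68 and Cd14 the other 7 summed to 0.989 to 2.96 FPKM in epidermis and 1.74 to 3.94 in the telogen bulge, which overlapped. Within resting skin Ptprc (0.535 FPKM), Lyz2 (1.28), Itgam (0.172) and Ccr2 (0.0759) were highest in replicate 2 of epidermis at 24 months. The rest of that list, Cd68, Cd14, Csf1r, Fcgr3 and Emr1, were each highest in a telogen bulge library. The 7 T cell markers summed to 4.90 to 10.6 FPKM in epidermis and 4.99 to 7.83 in the telogen bulge, and the 5 Langerhans cell markers to 38.0 to 112 and 56.6 to 83.0. The part of other cell types in the Ly6 differences was not tested. Markers of differentiated epidermis, 9 listed genes, summed to 4447 to 5895 FPKM in epidermis and to 3087 to 8520 in the telogen bulge, and overlapped.

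The activated bulge was set against the same epidermis, a comparison that also follows the Xist split. Ly6a, Ly6c1, Ly6c2 and Ly6d were lower in the activated bulge at both ages, 4 of 5 members, where 3.54% of all genes were called lower and 9.12% higher at 2 months (12.7% in all) and 4.19% lower and 8.41% higher at 24 months (12.6% in all). The log2 differences at 2 months were -5.22 for Ly6a (SE 0.881, adjusted p = 0.00316), -5.03 for Ly6c1 (adjusted p = 0.00209), -3.77 for Ly6c2 (adjusted p = 0.00209) and -2.53 for Ly6d (adjusted p = 0.0495). At 24 months they were -4.94 (adjusted p = 0.00424), -5.70 (adjusted p = 0.000903), -4.26 (adjusted p = 0.000924) and -2.66 (adjusted p = 0.0403). Ly6e was at -0.62 (95% interval -2.52 to 1.29) and 0.17 (-1.73 to 2.08). The medians over the members were -3.77 and -4.26, against 0.12 and 0.04 over all genes. The choice of members, made with the telogen values known, also bears on the 4 of 5 here, since the epidermal libraries are the same.

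The calls of Ly6d sat at the threshold and were lost in 15 of 24 alternative settings at 2 months and in 9 of 24 at 24 months, and with the second activated library of 2 months left out its difference was -1.40 (adjusted p = 0.308). That same library, replicate 2, held the lowest values of all 5 members among the activated libraries. Leaving it out gave differences at 2 months of -3.68 for Ly6a, -3.72 for Ly6c1 and -2.75 for Ly6c2. Leaving out the other activated library of that age, the one with the most fibroblast RNA, gave -6.75, -6.34 and -4.79. All 6 of these values kept their calls. Without replicate 1 of the activated bulge at both ages, the differences at 24 months were -5.31 for Ly6a, -6.06 for Ly6c1, -4.52 for Ly6c2 and -3.06 for Ly6d, and the same 4 members were called at each age.

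Activated and telogen bulge were compared next. Here, and wherever these populations are compared below, depilation cannot be told apart from the split of Xist and Eif2s3y. No member was called at either age, where limma called 12.8% of all genes at 2 months (6.60% higher and 6.19% lower) and, at 24 months, 998 of 12468 genes (4.11% higher and 3.90% lower), and the smallest unadjusted p of a member was 0.142 (Ly6c1 at 24 months). At 2 months the differences were -0.83 for Ly6a, -0.57 for Ly6c1, 0.00 for Ly6c2, -0.43 for Ly6d and 1.06 for Ly6e, and at 24 months -0.77, -1.25, -0.30, -0.84 and 1.03. The 95% intervals were wide, from -2.79 to 1.14 for Ly6a and from -0.84 to 2.97 for Ly6e at 2 months, so changes of several fold lie within them. At 2 months the activated and telogen libraries overlapped for every member. At 24 months both activated libraries lay below both telogen libraries for Ly6a, Ly6c1 and Ly6d, while those of Ly6c2 and Ly6e overlapped. With these groups fitted alone, Ly6c1 was called lower (-1.25, adjusted p = 0.0261). Without replicate 1 of the activated bulge at both ages, Ly6a was at -2.36 (adjusted p = 0.0625) and Ly6e at 0.08 (adjusted p = 0.953) at 2 months, Ly6e was at 0.02 (adjusted p = 0.991) at 24 months, and again no member was called.

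Within a library, the scale of the library cancels from the ratio of paralogs, but a ratio of few fragments is imprecise. Ly6c1 amounted to 15.98 to 19.9% of the Ly6a FPKM in epidermis, 11.97 to 14.9% in the telogen bulge and, in the activated bulge, 16.4 and 13.1% at 2 months but 7.95 and 6.45% at 24 months. Ly6c2 amounted to 17.6 to 20.5% of Ly6c1 in epidermis and 14.3 to 23.0% in the telogen bulge, and its range was widest in the activated bulge (6.97 to 34.1%). There the lowest percent rests on an estimated 1.87 fragments of Ly6c2 and the highest on 23.6. The order Ly6a, Ly6c1, Ly6c2 was the same in all 12 libraries. Ly6i, the neighbour most like Ly6a in sequence, was at 12.04 to 16.2 FPKM in epidermis and at 0.231 to 1.36 in the bulge. How much of these ratios comes from reads that match several paralogs was not tested.

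**Figure D3:**
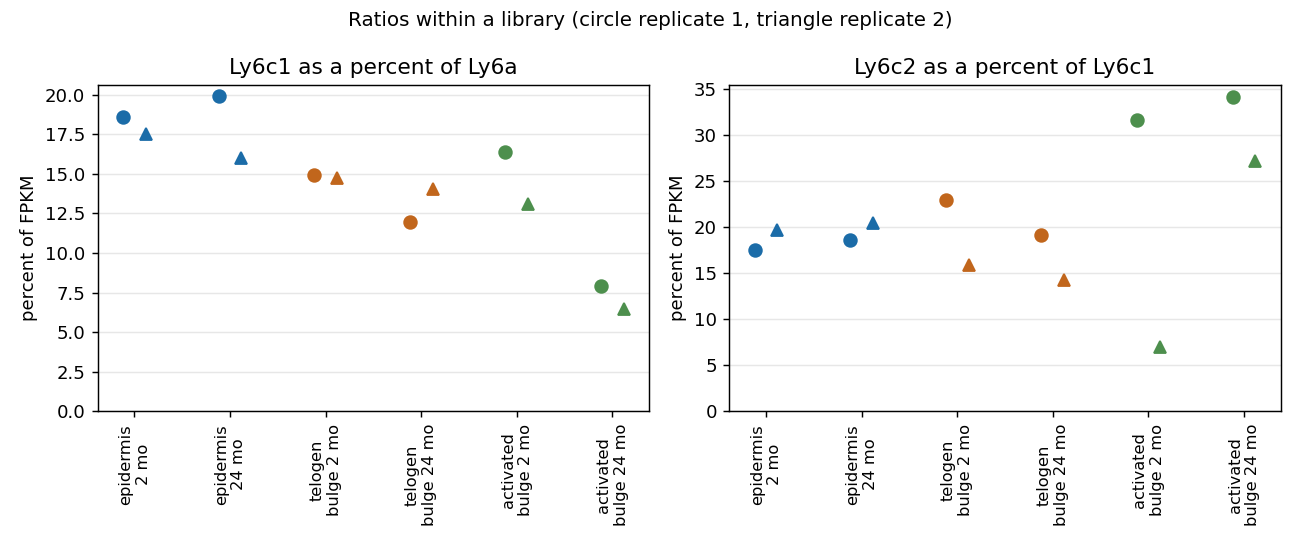
Ly6c1 as a percent of Ly6a and Ly6c2 as a percent of Ly6c1 in each library, from FPKM, by population and age in months (mo), with circles for replicate 1 and triangles for replicate 2. Epidermis lies at 15.98 to 19.9% on the left and 17.6 to 20.5% on the right, and the activated bulge at 24 months is lowest on the left, at 7.95 and 6.45%.

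Age was compared within each population, which is the question of the series. No member was called in epidermis, telogen bulge, activated bulge or their mean, where limma called 0% of all genes in each of these 4 comparisons. Over all genes 103, 182, 233 and 281 had an unadjusted p under 0.05, none of them a member. These are 0.83%, 1.46%, 1.87% and 2.25% of the genes tested. Each is under the share that a threshold of 0.05 gives when no gene differs. The lack of calls therefore does not show a lack of change. In epidermis, Ly6a, Ly6c1 and Ly6c2 had nearly the same mean at both ages, with log2 differences of 0.05, 0.04 and 0.10, but the 95% interval of Ly6a runs from -1.91 to 2.01. Ly6d had differences of 0.44 in epidermis, 0.72 in the telogen bulge and 0.31 in the activated bulge.

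Ly6e had the largest age difference of the 5 in the mean over the populations, 0.76 (SE 0.494, 95% interval -0.34 to 1.86, unadjusted p = 0.154, adjusted p = 1). It was at 1.04 in the telogen bulge, where both libraries at 24 months (73.1 and 69.6 FPKM) lay above both at 2 months (27.4 and 42.4), at 1.01 in the activated bulge and at 0.23 in epidermis, where the ages overlapped. The tests of whether the difference of telogen bulge and epidermis, or of activated and telogen bulge, changed with age gave no call for any member or any gene, with 84 and 98 genes at an unadjusted p under 0.05. For Ly6a these interactions were 0.22 (95% interval -2.56 to 2.99) and 0.06 (-2.72 to 2.83).

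**Figure D4:**
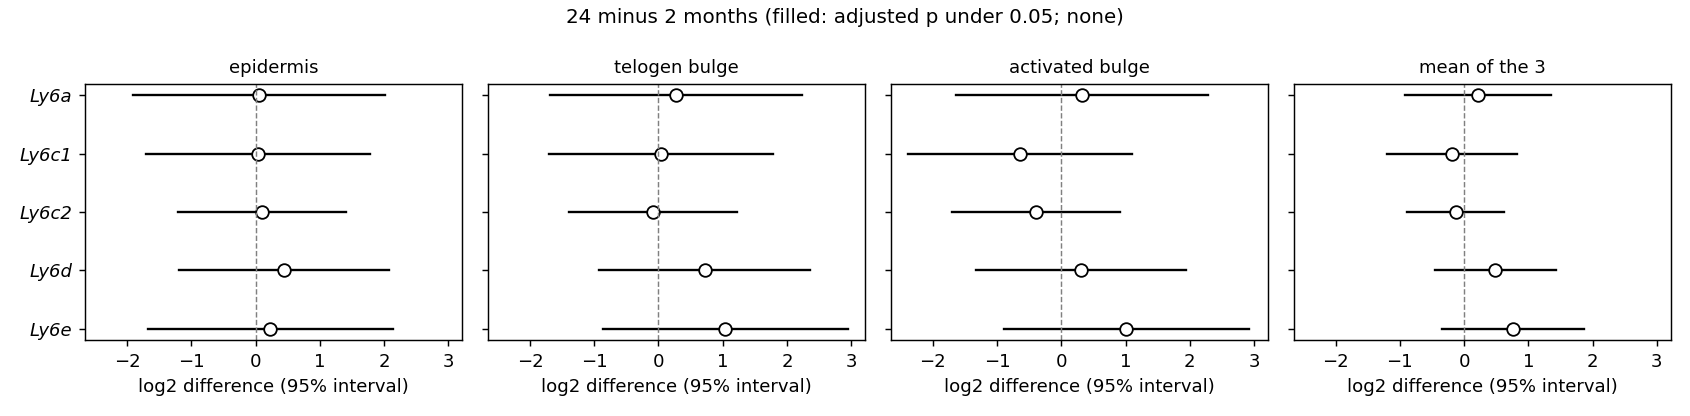
Difference of 24 minus 2 months on the log2(FPKM + 1) scale, with 95% intervals, for the 5 genes in each population and in the mean of the 3. No point is filled (adjusted p under 0.05), every interval spans 0, and the farthest point in the mean is Ly6e at 0.76.

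The spread between the libraries of a group set the width of these intervals. Replicate 1 minus replicate 2 on the log2 scale was 3.08, 2.62, 2.04, 2.27 and 1.97 for Ly6a, Ly6c1, Ly6c2, Ly6d and Ly6e in the activated bulge at 2 months, and -1.68, -1.45, -0.62, -1.20 and -0.61 in the telogen bulge at 2 months. In the telogen bulge at 24 months all 5 were between 0.01 and 0.24. Within each group all 5 members differed in one direction, with replicate 1 higher except in the telogen bulge at 2 months. Across genes (which are no replicates of each other), the replicate difference had Spearman correlations with transcript length of -0.544 and -0.469 in the activated bulge at 2 and 24 months, -0.526 and -0.226 in epidermis, and 0.3002 and -0.101 in the telogen bulge. In the activated bulge and in epidermis at 2 months its median over 1097 genes with transcripts of at most 1000 nt was 0.84 and 0.89, against 0.20 and 0.27 over all genes. Ly6a, Ly6c1, Ly6c2 and Ly6d are short in this sense. In the telogen bulge at 2 months, where the members were at -0.61 to -1.68, the median of the short genes was -0.08. Markers of differentiated epidermis went the same way, with sums of 11194 and 1016 FPKM in replicates 1 and 2 of the activated bulge and 3087 and 8520 of the telogen bulge at 2 months. Their part in the replicate differences was not tested.

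**Figure D5:**
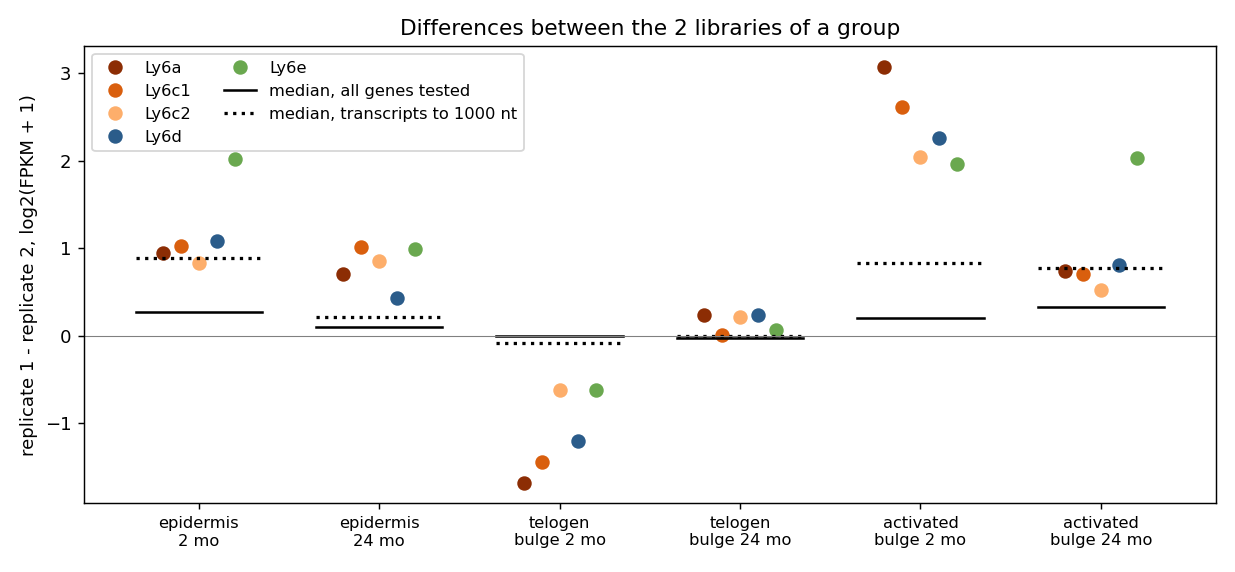
Replicate 1 minus replicate 2 in log2(FPKM + 1) for the 5 genes in each group, by population and age in months (mo), with solid lines for the median of all genes tested and dotted lines for the median of genes with transcripts of at most 1000 nt. The largest value is 3.08 for Ly6a in the activated bulge at 2 months, where the dotted line is at 0.84, and all 5 genes are within 0.24 of 0 in the telogen bulge at 24 months.

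Across the 12 libraries, Ly6a, Ly6c1, Ly6c2 and Ly6d varied together, with Pearson correlations of 0.926 to 0.991 in log2(FPKM + 1), while Ly6e had 0.417 to 0.577 with each of them. These are descriptions over libraries that share populations, depth and the length trend. Among 10086 genes with a group mean of at least 5 FPKM, the profiles most like that of Ly6a were Skint1 (0.992), a gene of the epidermal Skint family, Wnt3 (0.990), a Wnt ligand, and Il1rn (0.990), the interleukin-1 receptor antagonist. Ly6c1 was most like Wnt3, the Wnt receptor Fzd10 and Skint1 (0.987 to 0.989), and Ly6c2 most like Mst1, Gna14 and the fructose transporter Slc2a5 (0.990 to 0.991). Ly6d was most like Chit1, Il1rn and Dffa (0.977 to 0.979), and Ly6e most like Tapbpl, Ssbp4 and Rab32 (0.907 to 0.927).

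Other genes with the same protein fold, which belongs to the Ly6/uPAR superfamily, were set beside the members. Of 34 listed, 29 are in the files and 14 passed the filter. In telogen bulge against epidermis 1 was higher and 1 lower at each age, where 20.1% and 20.5% of all genes were called, with medians of 0.17 and 0.32 beside 0.18 and 0.11 over all genes. These 2 of 14 are no larger a share than the background. Ly6i was the one lower (log2 difference -3.16, adjusted p = 0.000111, and -3.35, adjusted p = 6.57e-05). Of the 50-base windows of Ly6i, 4.97% also occur in a transcript of another gene, and 2.80% in that of Ly6a. The part of shared reads in this call was not tested. Lypd6, a membrane protein that modulates Wnt signalling, was the one higher, at 6.62 and 4.45 FPKM in the telogen bulge at 2 months against 0.426 and 0.172 in epidermis (2.32, adjusted p = 0.00207), and by 2.51 at 24 months (adjusted p = 0.00122). Lypd3, a suprabasal epidermal protein, was abundant throughout, with means of 114 to 247 FPKM over the 6 groups, as was Ly6g6c with 100.05 to 272 FPKM, and neither was called in any of these comparisons.

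In activated against telogen bulge at 2 months 3 of the 14 were called, beside 12.8% of all genes. Plaur, the urokinase receptor, was higher, at 5.46 and 3.25 against 0.501 and 0.520 FPKM (log2 difference 1.79, adjusted p = 0.0254). The complement inhibitors Cd59a (-1.31, adjusted p = 0.00503) and Cd59b (-0.96, adjusted p = 0.0175) were lower. At 24 months only Cd59b of the 14 was called (-0.84, adjusted p = 0.0409), where 3.90% of all genes were lower. Against epidermis, the activated bulge had lower Ly6i and Cd59a and higher Lypd6 at both ages, 3 of 14 beside 12.7% and 12.6% of all genes. No gene of the 14 was called for age.

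The interferon response list, chosen because interferon induces Ly6a and Ly6e in many cells, had 13 of 21 genes tested. In telogen bulge against epidermis 0 were higher and 3 lower at each age, where 7.15% and 7.74% of all genes were lower and 20.1% and 20.5% were called either way, with medians of -0.998 and -0.83 against 0.18 and 0.11 over all genes. Those lower were the transcription factor Irf1 (-1.82, adjusted p = 0.0149 at 2 months), the RNA sensor Oas1a (-2.20, adjusted p = 0.0167) and its relative Oasl2 (-1.20, adjusted p = 0.0378). In activated against telogen bulge, Irf1 was higher (3.22, adjusted p = 0.00151) and Usp18, which restrains interferon signalling, lower (-3.18, adjusted p = 0.000721) at 2 months, beside 12.8% of all genes called, and the same 2 were called at 24 months, where 4.11% of all genes were higher and 3.90% lower. No gene of the list was called for age.

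Of 27 genes that make and attach the GPI anchor, 26 were tested. In telogen bulge against epidermis Pgap1, which remodels the anchor, was lower at both ages (-1.21, adjusted p = 0.0248, and -1.45, adjusted p = 0.0104), and Piga, needed for the first step of the anchor, was lower at 24 months (-1.23, adjusted p = 0.0191). None was higher. These 1 and 2 of 26 stand beside 20.1% and 20.5% of all genes called, a smaller share than the background. Medians of 0.06 and 0.15 stood beside 0.18 and 0.11 over all genes. In activated against telogen bulge only Pigh was called, lower at 2 months (-0.74, adjusted p = 0.0367), beside 12.8% of all genes.

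Wounded epidermis is given as values, since its 2 libraries were quantified on another annotation and scale and have no replicate. Each annotated value is that of a single transcript, for Ly6e one of 1733 nt, and not a sum over the transcripts of a gene. Ly6d was at 1376 FPKM at 2 months and 1386 at 24 months. The deposited confidence bounds at 2 months, 960 to 992 FPKM, do not hold that value of Ly6d, so its ages cannot be compared. Ly6a was at 76.3 and 73.6 FPKM and the Ly6e transcript at 69.0 and 153.8. Ly6c1 was listed at 0 at 2 months and at 75.2 at 24 months, and Ly6c2 was listed at 0 at both. Both files also hold assembled transcripts that run across neighbouring members. At 2 months one of 849 nt spans Ly6a and Ly6c1 over 54.0 kb at 155.7 FPKM, the same value as an assembled form of Ly6a alone, and another of 636 nt spans Ly6a, Ly6c1 and Ly6c2 over 138.8 kb at 128.8 FPKM. At 24 months their values were 177.6 and 141.7. With such spanning models quantified beside them, the annotated values of Ly6a, Ly6c1 and Ly6c2 in wounded epidermis cannot be read as levels of the single genes.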

How the data were processed

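Per the submitters' processing notes, TopHat and Cufflinks were run on mm9, and no versions are given. The authors deposited transcript FPKM per library. Other values in the files were used only to estimate depth. The deposited FPKM of the 12 resting and activated libraries lie 12533 to 18522 times above the usual scale, so all were divided by one constant, 16679.9, which changes no ratio. Fragments were estimated from the width of the deposited confidence bounds. FPKM were summed by gene name.

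Genes needed at least 1 FPKM in at least 2 libraries and a transcript of 300 nt or more, and 2 genes listed at 0 beside at least 1000 FPKM were left out. On log2(FPKM + 1), limma 3.58.1 (R 4.3.3) estimated the 6 group means jointly from 12 libraries, with trend, two-sided tests, Benjamini-Hochberg adjustment over 12468 genes and calls under 0.05. Standard errors thus share one spread over the 6 groups. The code was tested on simulated data. Sequences were compared with Biopython 1.88 on GENCODE M21 and RefSeq tables, a later build than that of the files, and no coordinate was carried over.

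The members and lists were chosen with earlier results of these data known, including the low Ly6a, Ly6c1 and Ly6c2 of the telogen bulge at 2 months. All 5 members are named, with the superfamily genes past the filter, the 3 genes most like each member, and up to 4 genes of a list by smallest p. Alternatives covered pseudocount, filter, normalization, main transcript, trend, groups fitted, a replicate block and leaving out single libraries. Removing the length trend, and leaving out replicate 1 of the activated bulge at both ages, were chosen after seeing the data, as were the marker sums without Egfl7, Fbln1, or Cd68 and Cd14.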

Additional observations from a re-analysis of the deposited data

How the results depend on the processing

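Over 1435 alternative values of the members, 1394 kept their side of the threshold, 26 lost a call, 15 gained one and 0 called values reversed. Values that stayed uncalled are among those kept even where their sign changed. The lost calls are the 2 of Ly6a given above and 24 of Ly6d in activated bulge against epidermis. Without one library at a time, 2 to 4 members were called in telogen bulge against epidermis and 3 to 4 in activated bulge against epidermis at each age, and 0 in the others. With only the groups compared, 1 member was called in activated against telogen bulge at 24 months. Pseudocounts of 0.1 and 5 moved Ly6c2 in telogen bulge against epidermis at 2 months to -4.54 and -2.44. Relative to the reported fit, equal library totals shifted the median gene by 0.17 to 0.42 (log2) in the comparisons of the activated bulge and by -0.10 and -0.19 in telogen bulge against epidermis, where quantile normalization shifted it by -0.18 and -0.13 and the removed length trend by -0.19 and -0.13. In activated bulge against epidermis at 2 months these 2 shifted it by -0.16 and -0.11. Where leaving out a library leaves 1 in a group, that one is assumed to vary like the others.

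Replicate numbers did not pair the libraries of all 6 groups: over 15 pairs of groups the replicate differences had correlations of -0.584 to 0.787, 7 of them over 0.1. The 6 pairs among epidermal and activated groups were all over 0.1 (0.184 to 0.787), while only 1 of the 9 pairs with a telogen group was. With a replicate block, Ly6d was also called lower in telogen bulge against epidermis at 2 months (-2.10, adjusted p = 0.0405), which made 4 members there. The block kept 3 at 24 months, 4 at each age in activated bulge against epidermis and 0 elsewhere. It gave 2416 calls among all genes in activated against telogen bulge at 2 months and 1693 at 24 months, against 1595 and 998.

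Counts over all genes, which set the background, moved more. Quantile normalization gave 2682 and 1751 calls in activated against telogen bulge, the removed length trend 2442 and 1567, and the groups alone 948 and 2304. In activated bulge against epidermis at 2 months the groups alone gave 807 against 1578. In telogen bulge against epidermis at 2 months, leaving out telogen replicate 1 or 2 took 2512 calls to 1289 or 1433. At 24 months the same step took 2561 to 1250 or 1322, and leaving out replicate 2 of epidermis to 1594. Leaving out single libraries gave as few as 412 in activated against telogen bulge at 2 months and 278 at 24 months, and 1046 against 1570 in activated bulge against epidermis at 24 months without replicate 1 of the activated bulge. The split of higher and lower calls in telogen bulge against epidermis at 2 months was 1620 and 892, and 1417 and 1310 after quantile normalization. The removed length trend gave 1640 and 1458. In activated bulge against epidermis at 2 months it was 1137 and 441, and 812 and 819 after quantile normalization or 1079 and 771 without the length trend. At 24 months it was 1048 and 522, and 788 and 750 after quantile normalization or 1498 and 407 with equal totals. In activated against telogen bulge it was 823 and 772 at 2 months and 512 and 486 at 24 months, with 1096 and 1586 and 716 and 1035 after quantile normalization and 1452 and 560 and 1017 and 315 with equal totals. With no filter on low values, 1 to 20 genes were called in the age comparisons and interactions, and 0 to 6 without single libraries.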
